A study of Mus musculus with 12 samples.

Results

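The 10 genes described here are non-classical major histocompatibility complex (MHC) class I genes: H2-Q1, H2-Q2, H2-Q4, H2-Q7, H2-Q10, H2-T22, H2-T23, H2-M3 and the predicted genes Gm11127 and Gm8909. They were taken by symbol from a table of 27457 genes, of which 26938 had at least 1 count. They were chosen with their levels in the host strains of these same tumors in view, so every level by strain below is a description with no test. Together they held 349612 of 414182018 unique molecular identifiers (UMIs, each standing for 1 captured RNA molecule), against 1297903 for the classical class I genes H2-K1 and H2-D1.

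Classical class I molecules present peptides from inside the cell to CD8+ T cells and vary strongly between individuals. The non-classical, or class Ib, heavy chains are encoded beside them on mouse chromosome 17, pair with the same light chain, beta-2-microglobulin, and have narrower roles. H2-T23 encodes Qa-1, which shows signal peptides of other class I chains to the CD94/NKG2A receptor of NK cells and T cells. H2-Q7 encodes a Qa-2 molecule, H2-M3 presents peptides that start with formylated methionine, H2-T22 is bound by some gamma-delta T cell receptors, and H2-Q10 is a secreted chain known from liver.

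The tumors were MC38, a colon carcinoma line derived from C57BL/6J mice, grown under the skin of female hosts aged 8 to 12 weeks. The hosts were C57BL/6J mice (B6) or F1 mice of C57BL/6J and a Collaborative Cross (CC) strain, namely CC001/UncJ, CC002/UncJ, CC007/UncJ, CC036/UncJ, CC075/UncJ, CC079/TauUncJ or CC080/TauUncJ, here named by the CC number. Each CC host thus carried 1 haplotype of its CC parent and 1 of C57BL/6J, and the injected tumor cells were the same in all hosts. When tumors measured 75 to 110 mm3 the host was injected once, with 200 µg of either an isotype control or a PD-1 antibody (aPD1), and tumors were collected after 48 h. Sorted cells, 90% CD45+ and 10% CD45-, were marked with hashtag antibodies and run as 12 droplet libraries (pools) of 4 tumors each. This gave 48 tumors, 24 per treatment: 6 from B6, 8 from CC001, 4 from CC007 and 6 from each other strain. The study classed CC001, CC002 and CC075 as responder strains and CC036, CC079 and CC080 as non-responder strains, and gave B6 and CC007 neither class. No hashtag was used for both treatments, so hashtag and treatment cannot be told apart.

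The 93126 cells carried a median of 3333.5 UMIs, and a tumor gave 53 to 3082 cells and 88816 to 17713491 UMIs. Of 87940 barcode sequences, 4990 occurred in more than 1 pool and 0 occurred more than once within a pool. The deposited clusters were grouped by marker genes into monocytes and macrophages, here called macrophages (68059 cells), T and NK cells (12021 cells) and dendritic cells (7817 cells). The dendritic class leaves out plasmacytoid dendritic cells. A level is given as CPM, the UMIs of a gene per 1000000 UMIs of that cell class in a tumor, and is compared across strains within a gene. Unless stated, tumors with under 25 cells of a class were left out, which kept 48 tumors for macrophages and 47 for T/NK cells. The aPD1-treated CC007 tumor of pool 6 had only 30 macrophages and 46554 macrophage UMIs, so 0 counts there allow a level of up to 64.4 CPM (3 counts), and what changes without it is given below. Fewer cells of a subtype and less RNA per cell cannot be told apart in such sums.

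The coding starts of 4 members and of H2-K1 are shown because these 4 genes are among those that separate the strains most clearly. The letters are the first 60 coding bases of each, from GRCm38 with GENCODE annotation, and capitals mark bases that do not align to the same base of H2-K1.

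H2-K1: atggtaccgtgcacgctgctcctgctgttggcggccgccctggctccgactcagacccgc

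H2-Q1: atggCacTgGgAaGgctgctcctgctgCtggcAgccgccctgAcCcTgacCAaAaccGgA

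H2-Q2: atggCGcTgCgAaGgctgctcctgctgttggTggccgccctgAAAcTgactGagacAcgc

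Gm11127: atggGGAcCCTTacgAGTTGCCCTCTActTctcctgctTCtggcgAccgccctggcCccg

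H2-Q10: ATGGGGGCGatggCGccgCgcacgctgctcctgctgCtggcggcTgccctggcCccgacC

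All lie on chromosome 17 in a single coding exon: H2-Q1 at chr17:35320562-35320621 and H2-Q2 at chr17:35342333-35342392 on the plus strand, Gm11127 at chr17:36058302-36058361 on the minus strand, H2-Q10 at chr17:35470107-35470166 on the plus strand and H2-K1 at chr17:34000198-34000257 on the minus strand. Of the 60 bases, 15 were marked in H2-Q1, 13 in H2-Q2, 24 in Gm11127 and 16 in H2-Q10. The 10 genes span chr17:35320405-37274484 and all 10 are annotated as protein coding. Over the whole coding sequence H2-Q1, H2-Q2, H2-Q10 and Gm11127 were 86.1%, 85.0%, 80.5% and 75.2% identical to H2-D1. In the first 500 transcript bases, where 5′ reads fall, every window of 90 bases of H2-Q1, H2-Q2, H2-Q4, H2-Q10, H2-T23, H2-M3 and Gm8909 was found in no other annotated gene. The share of such windows was 89.8% in H2-Q7 (the others are shared with H2-Q5), 88.1% in H2-T22 (shared with H2-T10) and 63.8% in Gm11127 (shared with Gm7030). Counts of these 3 genes are thus uncertain at least to that extent. The windows compare reference transcripts with one another only. How reads from the haplotypes of the CC parents were assigned was not tested for any member. H2-Q7 is also 93.1% identical to H2-Q6 in coding sequence.

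Macrophages, the largest class, showed 5 members that were near 0 in B6, CC001, CC002 and CC075 and detected in CC007, CC036, CC079 and CC080. They were H2-Q1, H2-Q2 and H2-Q10 of the Q region and the predicted genes Gm8909 and Gm11127. H2-T23 and H2-T22 had another pattern, being lowest in CC036 and CC079, while H2-Q7 was highest in CC075, H2-Q4 in CC080 and CC007, and H2-M3 in CC001. The near-0 strains are B6 and the 3 responder strains, and the other strains are the 3 non-responder strains and CC007. Between responder strains (20 tumors) and non-responder strains (18 tumors) the ranges of 5 of the 10 members did not overlap, which over all genes tested was so for 0.0538%; since the members were chosen on these values, nothing is read from that count.

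**Figure D1:**
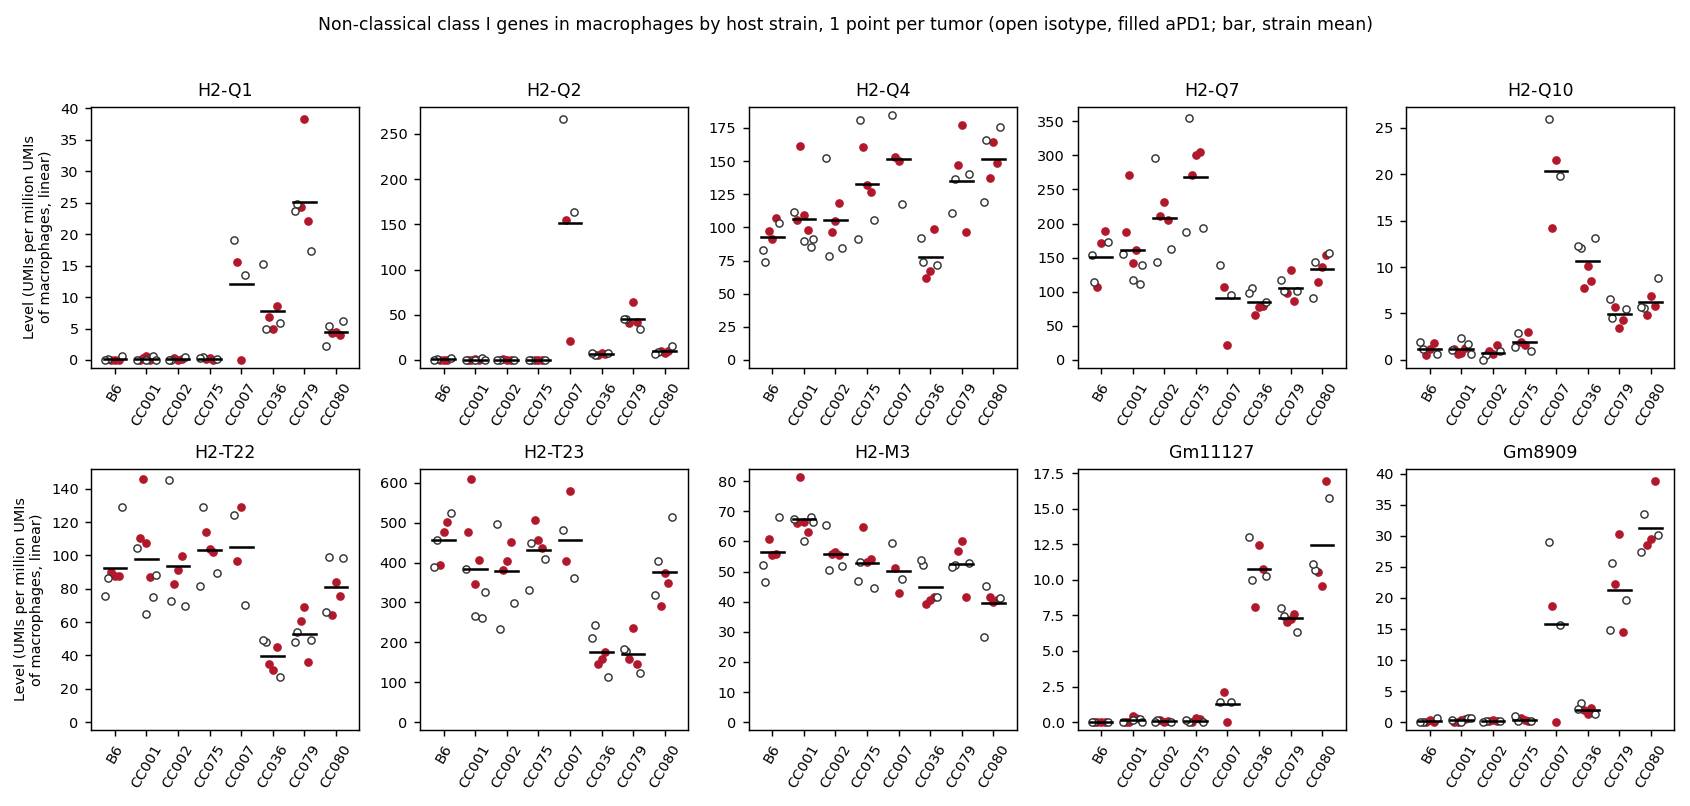
Level of each member in macrophages, in CPM on a linear scale, by host strain. Each point is 1 tumor (isotype or aPD1) and the bar is the strain mean. H2-Q1, H2-Q2, Gm11127 and Gm8909 sit at or below 1.90 CPM in B6, CC001, CC002 and CC075, while H2-T23 reaches at most 243 CPM in CC036 and CC079.

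H2-Q2, a Q-region heavy chain gene, was highest in CC007. Its lowest, median and highest macrophage levels were 0, 0.287 and 1.90 CPM in B6, 0, 0.155 and 1.70 CPM in CC001, 0, 0.248 and 0.993 CPM in CC002, and 0, 0.113 and 0.324 CPM in CC075. In the other strains they were 5.82, 6.99 and 7.77 CPM in CC036, 6.75, 8.87 and 15.2 CPM in CC080, and 34.5, 43.3 and 63.9 CPM in CC079. The 4 CC007 tumors gave 163 and 267 CPM under isotype and 155 and 21.5 CPM under aPD1, the last from 1 UMI in the 30 macrophages of pool 6. The near-0 strains overlapped with one another, all lay below CC036, and CC079 lay above CC080 and CC036 without overlap. In pooled UMIs, H2-Q2 was 609-fold higher in CC007 than in B6 (11 UMIs), 130-fold in CC079, 26.0-fold in CC080 and 20.3-fold in CC036. Without the pool 6 aPD1 tumor, CC007 lay above every other strain.

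H2-Q1, its neighbour, was highest in CC079 rather than in CC007. The lowest, median and highest levels were 17.3, 24.005 and 38.3 CPM in CC079, 4.99, 6.35 and 15.3 CPM in CC036, and 2.19, 4.37 and 6.14 CPM in CC080. The CC007 tumors gave 13.5 and 19.1 CPM under isotype, and 15.5 and 0 CPM under aPD1, the 0 again from pool 6, without which the range was 13.5 to 19.1 CPM. In B6, CC001, CC002 and CC075 the highest of 26 tumors had 0.679 CPM. CC079 overlapped only with the next strain in the order, CC007, and the lowest detected strain, CC080, lay above the near-0 strains without overlap.

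Gm8909, a predicted class I gene of the T region, was highest in CC080, with 27.3, 29.8 and 38.8 CPM (lowest, median and highest). CC079 followed with 14.5, 21.0 and 30.2 CPM, and overlapped with CC080. The CC007 tumors gave 15.7 and 28.9 CPM under isotype and 18.7 and 0 CPM under aPD1, and 15.7 to 28.9 CPM without the tumor at 0, that of pool 6. CC036 stood between these and the near-0 strains, with 1.32, 2.03 and 3.00 CPM, above the highest value of 0.942 CPM in the near-0 strains. The 4 detected strains thus came in a different order for each gene: CC007 led for H2-Q2, CC079 for H2-Q1 and CC080 for Gm8909.

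Gm11127, a predicted class I gene near H2-T22 and H2-T23, had 0 UMIs in all 6 B6 tumors, out of 31605020 macrophage UMIs, which allows up to 0.0949 CPM (3 counts over the strain). Its lowest, median and highest levels were 9.59, 10.9 and 16.9 CPM in CC080, 8.11, 10.5 and 12.99 CPM in CC036, and 6.36, 7.35 and 8.02 CPM in CC079. Against the B6 limit these were at least 130-fold, 116-fold and 76.3-fold higher in pooled UMIs. The CC007 tumors gave 1.45 and 1.43 CPM under isotype and 2.14 and 0 CPM under aPD1, at least 16.8-fold above the B6 limit when pooled. CC080 and CC036 overlapped, CC079 lay below both without overlap, and CC007 lay below CC079, with 1.43 to 2.14 CPM when the pool 6 tumor at 0 was left out. The highest tumor of CC001, CC002 and CC075 had 0.425 CPM. Gm7030, with which Gm11127 shares windows, had every CC080 tumor below those of all other strains in macrophages. Whether reads were exchanged between these genes was not tested.

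H2-Q10, the secreted chain, was the only member for which a strain stood apart, meaning that every tumor of that strain lay above, or every tumor below, those of the 7 others. The CC007 tumors gave 19.8 and 25.9 CPM under isotype and 14.2 and 21.5 CPM under aPD1, the last from 1 UMI. CC036 had 7.76, 11.1 and 13.2 CPM, CC080 4.82, 5.77 and 8.77 CPM, and CC079 3.43, 4.98 and 6.51 CPM. The near-0 strains were not at 0 here: medians ran from 0.80 CPM in CC002 and 1.10 in CC001 to 1.18 in B6 and 1.77 in CC075, with a highest value of 3.05 CPM in CC075. Pooled levels were 17.4-fold higher in CC007 than in B6, 8.49-fold in CC036, 4.88-fold in CC080 and 3.96-fold in CC079. Of all genes tested, 0.653% had a strain apart in macrophages. Since the members were chosen on these levels, nothing is read from the 1 member that did. In the macrophage clusters without the largest, H2-Q10 in CC007 no longer stood apart and H2-Q2 in CC007 did, and in tumors of at least 100 cells both did.

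H2-T23, the Qa-1 gene, split the strains differently. Its lowest, median and highest levels were 389, 467 and 525 CPM in B6, 332, 442 and 506 CPM in CC075, 261, 365 and 610 CPM in CC001, 233, 394 and 497 CPM in CC002, and 291, 362 and 515 CPM in CC080. The CC007 tumors gave 361 and 483 CPM under isotype and 403 and 580 CPM under aPD1. In CC036 the values were 113, 167 and 243 CPM and in CC079 124, 168 and 236 CPM. Both strains lay below B6, CC001, CC007, CC075 and CC080 in every tumor, and overlapped with each other and with the lowest CC002 tumor. Pooled levels were 0.374 times the B6 level in CC036 and 0.39 times in CC079. The non-responder strain CC080 was not low.

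H2-T22, the gamma-delta T cell ligand gene beside H2-T23, was also lowest in CC036 and CC079 in macrophages. It had 27.1, 40.0 and 49.6 CPM in CC036 and 35.8, 51.7 and 68.8 CPM in CC079, against 75.9, 87.6 and 129 CPM in B6. The medians of the other strains were between 79.7 CPM in CC080 and 110 CPM in CC007, and all neighbours in the order overlapped. Pooled levels were 0.436 times the B6 level in CC036 and 0.612 times in CC079. Over the 48 tumors the log2(CPM + 1) levels of H2-T22 and H2-T23 correlated with r = 0.92, a description over tumors that share pools and strains.

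H2-Q7, the Qa-2 gene, was highest in CC075 and lowest in CC036. CC075 had 188, 285 and 354 CPM, CC002 143, 208 and 296 CPM, CC001 111, 149 and 271 CPM, B6 107, 162 and 189 CPM, CC080 91.5, 140 and 156 CPM, CC079 86.5, 101 and 132 CPM, and CC036 66.5, 81.8 and 106 CPM. The CC007 tumors gave 95.3 and 140 CPM under isotype, and 108 and 21.5 CPM under aPD1, the last from 1 UMI, and 95.3 to 140 CPM without it. Every neighbouring pair in the order overlapped, but CC075 lay above CC080, CC079, CC007 and CC036 without overlap.

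H2-Q4, a Q-region gene detected in every strain, and H2-M3, the formyl-peptide presenter, varied least between strain medians. H2-Q4 medians ran from 73.0 CPM in CC036 and 94.3 in B6 to 152 in CC007 and 156 in CC080, and the highest single tumor was a CC007 tumor with 185 CPM. All CC080 tumors (119 to 176 CPM) and all CC007 tumors (117 to 185 CPM) were above the highest B6 tumor (107 CPM). H2-M3 medians ran from 40.8 CPM in CC080 and 41.6 in CC036 to 55.8 in B6 and 66.5 in CC001. Every CC080 tumor (28.2 to 45.2 CPM) was below every B6 tumor (46.5 to 68.2 CPM) for H2-M3.

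Set against B6 alone in macrophages, CC001, CC002 and CC075 had 0 members without overlap, where 2.01%, 2.39% and 2.0% of all genes tested had none. CC075 had 1, H2-Q7 above B6, without either the B6 aPD1 tumor of pool 8 or its own isotype tumor of pool 11. CC007 had 3 (H2-Q2, H2-Q4 and H2-Q10, all above B6; background 1.46%), and 6 without the aPD1 tumor of pool 6, with H2-Q1, Gm11127 and Gm8909 also above B6 (background 3.77%). CC036 had 5 above (H2-Q1, H2-Q2, H2-Q10, Gm11127 and Gm8909) and 3 below (H2-Q7, H2-T22 and H2-T23; background 2.54%). CC079 had the same 5 above and H2-T22 and H2-T23 below (background 10.7%), and CC080 had those 5 and H2-Q4 above and H2-M3 below (background 2.13%). These counts describe how the genes were chosen, and nothing is read from them. All 10 members passed the filter on low counts, which H2-Q1, H2-Q2, Gm11127 and Gm8909 met through the strains where they were high.

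The share of variance between tumors (log2(CPM + 1), macrophages) that lay between strains put the members in an order of their own. It was 0.977 for Gm11127, 0.949 for H2-Q2, 0.927 for H2-Q10, 0.903 for Gm8909 and 0.884 for H2-Q1. It was 0.771 for H2-T23, 0.720 for H2-T22, 0.662 for H2-M3, 0.629 for H2-Q7 and 0.591 for H2-Q4, with a median of 0.284 over all genes tested. The members were chosen on these levels, so nothing is read from how their shares compare with that median. The classical genes had shares of 0.776 (H2-K1) and 0.541 (H2-D1). Their strain medians ran from 835 CPM in CC036 to 2320 CPM in CC080 for H2-K1, and from 1194 CPM in CC080 to 1777 CPM in CC002 for H2-D1. Summed over the 10 members, macrophage levels were 460 ± 83.9 CPM (SD, n = 6) in CC036 and 621 ± 109 CPM (SD, n = 6) in CC079, against 852 ± 107 CPM (SD, n = 6) in B6 and 1055 ± 191 CPM (SD, n = 4) in CC007, or 1085 ± 222 CPM (SD, n = 3) without the pool 6 aPD1 tumor. H2-T23 alone held 133378 of the 349612 member UMIs, and the strains with the lowest sums were those with the lowest H2-T23.

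Each pool held tumors of 2 strains, and in 11 of the 12 pools, all but pool 12, a near-0 strain and a detected strain were run in the same library. In these 11 pools the near-0 strain was lower in 11 of 11 for each of H2-Q1, H2-Q2, Gm8909, Gm11127 and H2-Q10. Within pools, H2-Q2 was 0 to 1.21 CPM in the near-0 strain and 6.80 to 230 CPM in its partner, and Gm11127 was 0 to 0.364 CPM against 1.43 to 14.7 CPM. The corresponding ranges were 0 to 0.667 CPM against 3.32 to 31.1 CPM for H2-Q1, 0 to 0.665 against 1.54 to 34.3 CPM for Gm8909, and 0.561 to 2.32 against 3.99 to 22.1 CPM for H2-Q10. The strains and the 5 genes had been sorted by these same macrophage levels, so that count was fixed in advance and nothing is read from it. CC007 was run in pools 6 and 7 only, and CC036, CC075 and CC079 were each run in either pools 1 to 6 or pools 7 to 12. Among strains run in both sets, CC080 had mean levels of 11.7 and 14.0 CPM for Gm11127 and 30.4 and 33.1 CPM for Gm8909 in pools 1 to 6 and 7 to 12. H2-T23 had 330 and 474 CPM in CC002 and 396 and 334 CPM in CC080.

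T/NK cells, a lymphoid class, included cluster 12 (535 cells), in which 8 of 8 T/NK markers but also 7 of 8 monocyte/macrophage markers reached 100 CPM, and values without it are given below. The class had medians above the near-0 strains in the same 4 strains for H2-Q1, H2-Q2, Gm8909, Gm11127 and H2-Q10, although single tumors were at 0 in CC036 (H2-Q1 and Gm8909) and CC079 (Gm11127). H2-Q2 was 329, 380 and 407 CPM in the 3 CC007 tumors kept and 101, 134 and 359 CPM (lowest, median and highest) in CC079, against a highest value of 9.57 CPM in the near-0 strains. H2-Q1 was 69.4, 87.0 and 136 CPM in CC079, above all other strains, of which CC036 reached 51.0 CPM. Gm11127 was 16.4, 24.1 and 35.9 CPM in CC036 and at most 1.36 CPM in B6, CC001, CC002 and CC075. Gm8909 had medians of 60.1 CPM in CC079, 46.2 in CC007 and 34.6 in CC080, and H2-Q10 was 37.8, 38.3 and 42.9 CPM in the CC007 tumors against medians of 5.49 to 6.39 CPM in the near-0 strains.

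**Figure D2:**
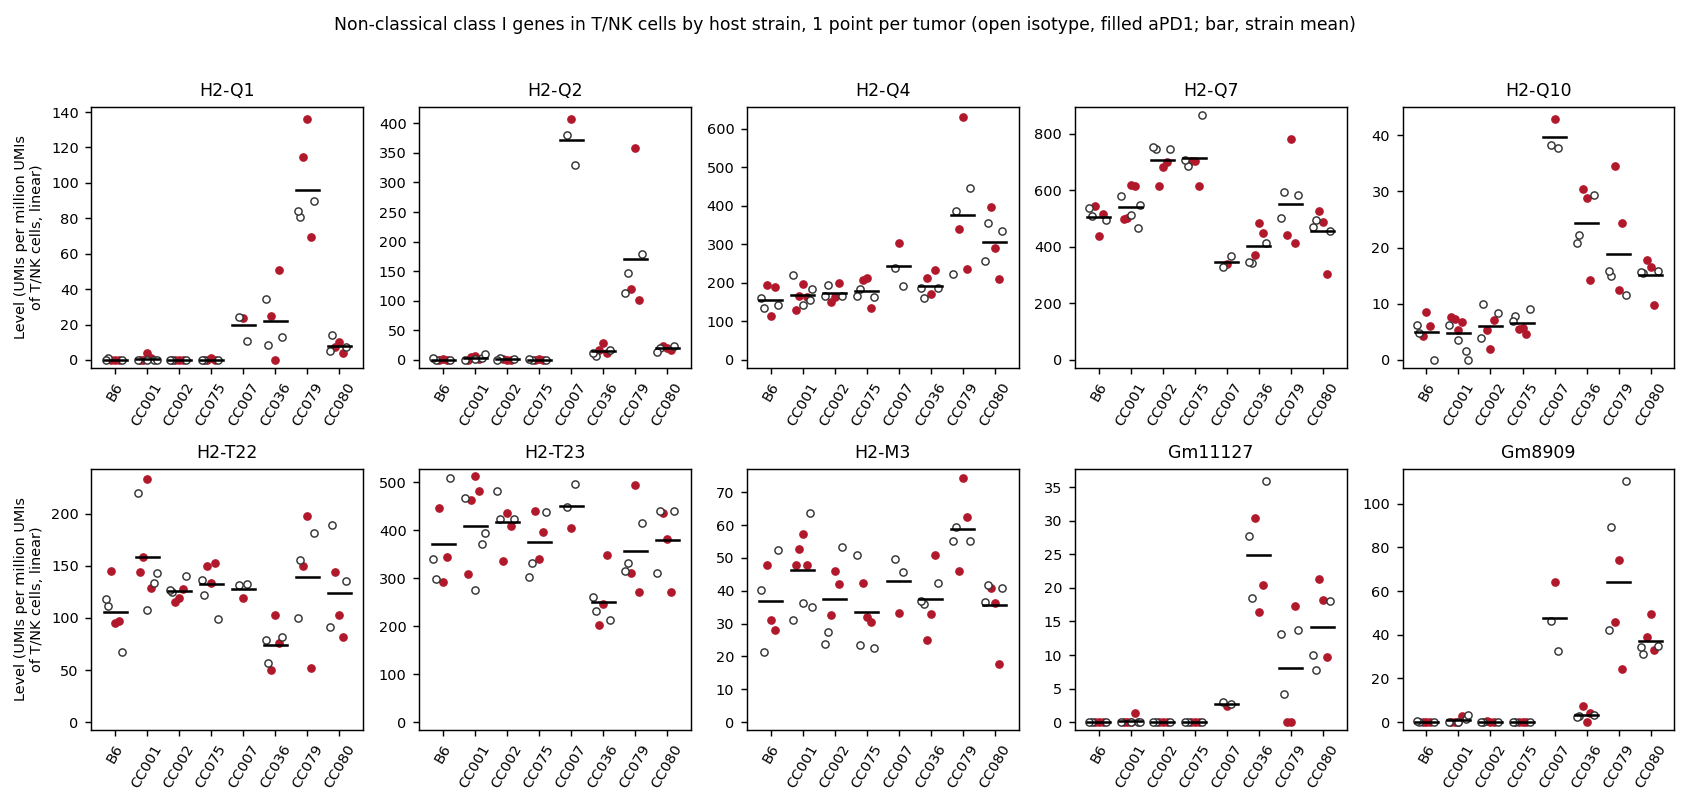
Level of each member in T/NK cells, in CPM on a linear scale, by host strain. Each point is 1 tumor (isotype or aPD1) and the bar is the strain mean. H2-Q1 is above every other tumor in CC079 (69.4 to 136 CPM) and H2-Q10 in CC007 (37.8 to 42.9 CPM).

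A strain stood apart for 2 members in T/NK cells, H2-Q1 in CC079 and H2-Q10 in CC007, where 0.287% of all genes tested had such a strain; nothing is read from that count. Without cluster 12 (46 tumors kept) the members were H2-Q1 in CC079 and H2-Q2 in CC007, since 1 CC079 tumor then had 41.4 CPM of H2-Q10, inside the CC007 range of 36.9 to 43.8 CPM. H2-T23 medians ran from 240 CPM in CC036 to 449 CPM in CC007, and all neighbours in the order overlapped. CC079, with a median of 324 CPM, overlapped with B6, with 343 CPM, whereas in macrophages it lay below B6 without overlap. Set against B6, CC002 and CC075 each had 1 member without overlap (background 1.06% and 1.01%), CC036 had 3 (1.2%), CC007 and CC080 had 6 each (2.53% and 0.883%), CC079 had 5 (2.78%) and CC001 had 0 (0.585%), and nothing is read from these counts either. H2-Q7 was high in CC002 (615, 723 and 751 CPM) and CC075 (613, 704 and 867 CPM) and low in CC007 (329, 338 and 367 CPM) against B6 (437, 512 and 545 CPM), without overlap. H2-Q4 was high in CC079 (224, 363 and 631 CPM) and CC080 (211, 312 and 397 CPM) against B6 (114, 152 and 195 CPM), also without overlap. Unlike in macrophages, H2-T22 was not low in CC079. Its median there was 152 CPM, against 104 CPM in B6 and 77.0 CPM in CC036, and the ranges of these strains overlapped. Without cluster 12, CC080 overlapped with B6 for H2-Q4 (lowest 190 CPM against a highest of 203 CPM in B6), and the median of Gm11127 in CC079 was 14.2 CPM in place of 8.71 CPM. The between-strain share of variance was 0.742 for H2-Q7, 0.676 for H2-Q4, 0.458 for H2-T23, 0.425 for H2-T22 and 0.341 for H2-M3 in this class, where the median over all genes was 0.231. It was thus higher than in macrophages for H2-Q7 and H2-Q4, and lower for H2-T23, H2-T22 and H2-M3. Nothing is read from how these shares compare with the median over all genes.

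In dendritic cells, in pooled UMIs, H2-Q2 was 273 CPM in CC007 and 57.8 CPM in CC079, and H2-T23 was 226 CPM in both CC036 and CC079 against 406 to 505 CPM elsewhere. Across the 8 strains, the log2(CPM + 1) levels of macrophages and dendritic cells correlated with r between 0.91 (H2-Q4) and 1.00 (Gm8909). Between macrophages and T/NK cells r was 0.98 to 0.99 for the 5 genes near 0 in B6, 0.80 for H2-Q7, 0.76 for H2-T22, 0.73 for H2-Q4, 0.71 for H2-T23 and 0.37 for H2-M3. Without cluster 12 these were 0.98 to 0.99, 0.78, 0.74, 0.72, 0.68 and 0.32. These are descriptions over 8 strains whose cell classes come from the same tumors.

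**Figure D3:**
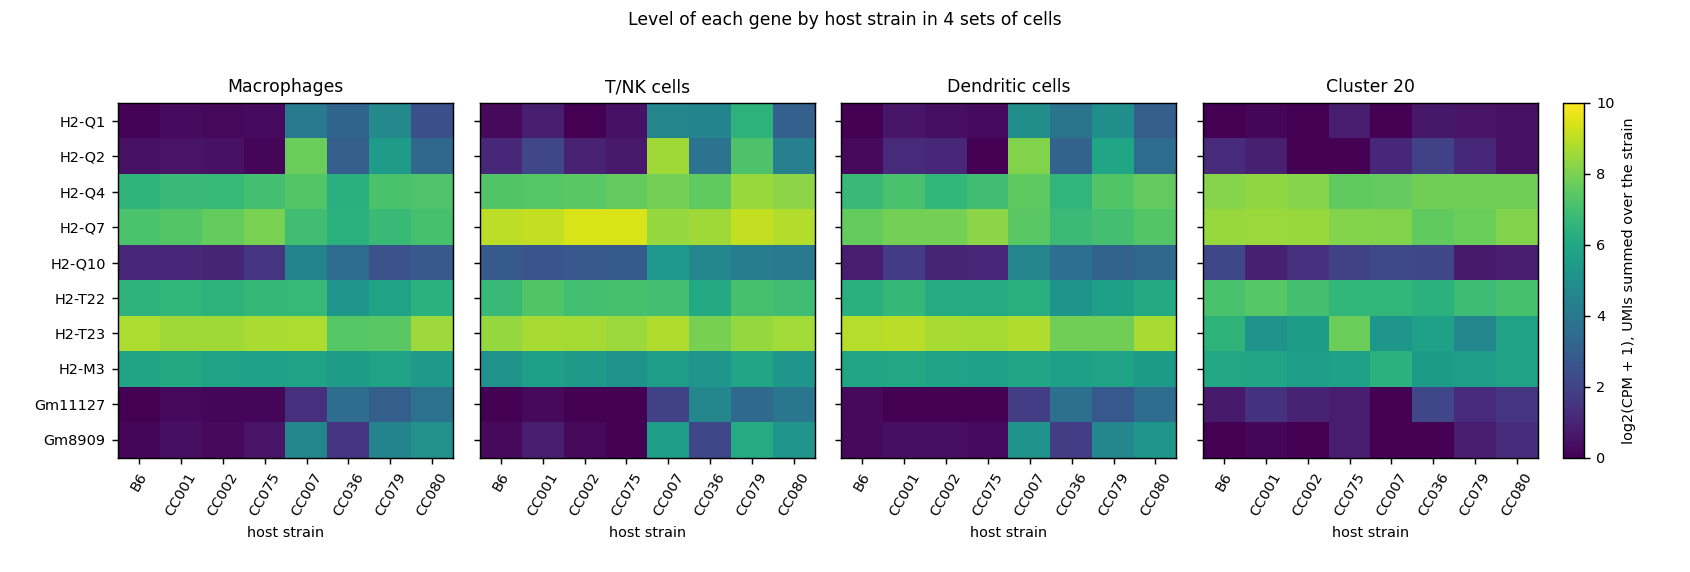
Pooled level of each member by host strain in macrophages, T/NK cells, dendritic cells and cluster 20, as log2(CPM + 1). H2-Q1, H2-Q2, Gm11127 and Gm8909 are low in B6, CC001, CC002 and CC075 in the first 3 classes, and in cluster 20 they reach at most 3.38 CPM in any strain.

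Cluster 20 (3411 cells) had low pooled levels of H2-Q1, H2-Q2, Gm8909, Gm11127 and H2-Q10. It could not be named: 3 of 7 fibroblast markers (highest 854 CPM), 2 of 8 monocyte/macrophage markers and 0 of 8 epithelial or MC38 markers reached 100 CPM in it, and no list had more than the fibroblast list. Shisal2b, the marker the study used for MC38 cells, was just under that limit at 97.8 CPM, against at most 6.56 CPM in any other cluster. Its leading genes were Gm45589, Rhox5 and Kirrel3, and Ptprc, which encodes CD45, was at 120 CPM. Pooled by strain, H2-Q1 was 0 to 0.728 CPM, H2-Q2 0 to 2.82 CPM, Gm8909 0 to 1.44 CPM, Gm11127 0 to 3.38 CPM and H2-Q10 0.599 to 3.59 CPM there, over the 8 strains. CC007, the strain highest for H2-Q2 in macrophages, had only 1 tumor with enough cells of this cluster, with 1 UMI of H2-Q2 (1.20 CPM). Single tumors were higher where depth was low: the isotype CC036 tumor of pool 8 (29 cells and 37069 UMIs) had 54.0 CPM of Gm11127 from 2 UMIs, and its 1 UMI of H2-Q2 made it the highest of the 8 strains' tumors for that gene too. With it, the mean of Gm11127 over the 6 CC036 tumors was 11.96 CPM, beside a mean of 10.8 CPM in macrophages of that strain. H2-Q4, at 187 to 320 CPM, was higher than in macrophages, and H2-T23, at 23.2 to 213 CPM, was lower.

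Across the 27 clusters, summed over all tumors, H2-Q7 was highest in a T/NK cluster led by Foxp3 (cluster 8, 618 CPM) and lowest in a monocyte/macrophage cluster led by Adgre4 and Ace (cluster 4, 65.5 CPM). H2-T23 was highest in plasmacytoid dendritic cells (850 CPM), came to 608 CPM in the macrophage cluster led by Ifit3 and other interferon-induced genes (cluster 21), and was lowest in cluster 20 (48.1 CPM). H2-T22 was highest in cluster 21 too (197 CPM). H2-M3 was highest in plasmacytoid dendritic cells (95.8 CPM) and H2-Q4 in migratory dendritic cells (316 CPM). H2-Q1, H2-Q2 and Gm8909 were all highest in cluster 8, at 20.7, 63.7 and 23.2 CPM. Strains do not contribute equally to a cluster, so these levels mix cell type with host.

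**Figure D4:**
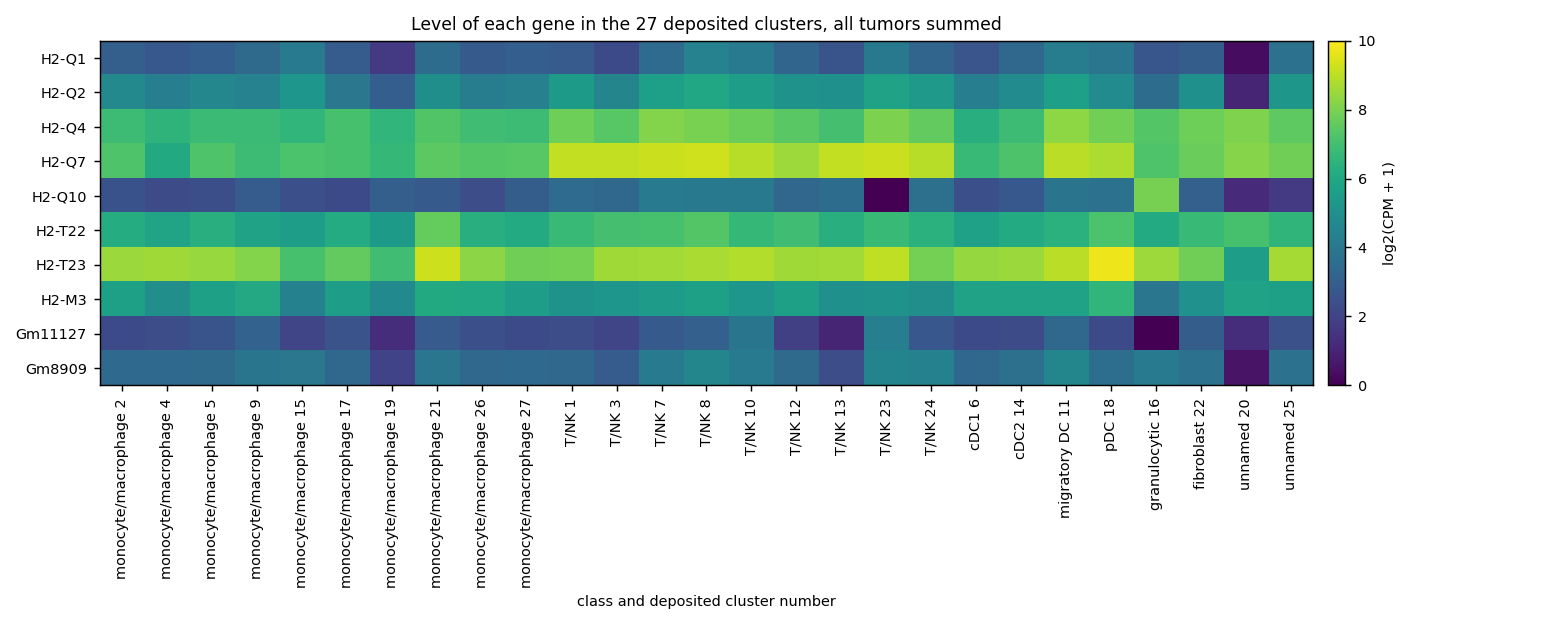
Level of each member in the 27 deposited clusters, as log2(CPM + 1), summed over all tumors and grouped by cell class. H2-Q10 reaches 249 CPM in the granulocytic cluster and at most 16.1 CPM in any other.

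H2-Q10 was highest in granulocytic cells (cluster 16, 529 cells, 6 of 6 granulocytic markers detected). It reached 249 CPM there, against 16.1 CPM in the next cluster. Only 4 tumors held 25 of these cells, so the limit was dropped here and all tumors of a strain were summed, which gave 26 to 175 cells per strain. Among the strains near 0 in macrophages, the pooled level was 351 CPM in B6 (exact Poisson 95% interval 168 to 645), 337 CPM in CC001 (259 to 432), 288 CPM in CC002 (168 to 461) and 213 CPM in CC075 (130 to 329). In the other strains it was 260 CPM in CC080 (130 to 465.7), 187 CPM in CC007 (68.4 to 406), 186 CPM in CC036 (85.0 to 353) and 67.4 CPM in CC079 (21.9 to 157). The interval of CC079 lay below those of B6, CC001 and CC002, and all other pairs of intervals overlapped. The intervals cover counting error only, and the spread between tumors is not in them.

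The genes outside the members whose macrophage pattern over 48 tumors was most like each member were found by the correlation of log2(CPM + 1), a description over tumors that share strains and pools. Gm10260 was the most similar for H2-Q1 (r = 0.89), H2-Q2 (0.88), H2-Q10 (0.84) and Gm11127 (0.89), and Ly6c1 for Gm8909 (0.84). Sp140 was the most similar for both H2-T22 (0.87) and H2-T23 (0.88), followed by Sp110 (0.86) and the immunoproteasome subunit gene Psmb9 (0.85). Spon1 was nearest to H2-Q7 (0.88), the interferon regulatory factor gene Irf7 to H2-Q4 (0.65) and H2-D1 to H2-M3 (0.80). Among members, H2-Q1 and H2-Q2 had r = 0.91.

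The effect of the antibody was tested over all genes with edgeR with strain as covariate; the members were listed by strain and not by this contrast, but earlier results of these data were known when they were chosen. In macrophages (24 aPD1 against 24 isotype tumors) 0 of the 10 members passed an adjusted p of 0.05 by edgeR or DESeq2, and 0 had an unadjusted p under 0.05. Over all 13010 genes edgeR called 0 (0.0%), with 426 at an unadjusted p under 0.05 (3.27%), and DESeq2 called 0. The log2 fold changes, aPD1 over isotype with their SE, were 0.14 ± 0.10 for H2-T23, 0.14 ± 0.08 for H2-Q4, 0.12 ± 0.10 for H2-Q7, 0.08 ± 0.10 for H2-T22, 0.06 ± 0.06 for H2-M3 and -0.25 ± 0.13 for H2-Q10. For the other members near 0 in B6 they were -0.03 ± 0.21 for H2-Q1, -0.11 ± 0.19 for H2-Q2, 0.06 ± 0.15 for Gm11127 and -0.00 ± 0.16 for Gm8909. The median over the members was 0.06, beside -0.0026 over all genes tested.

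**Figure D5:**
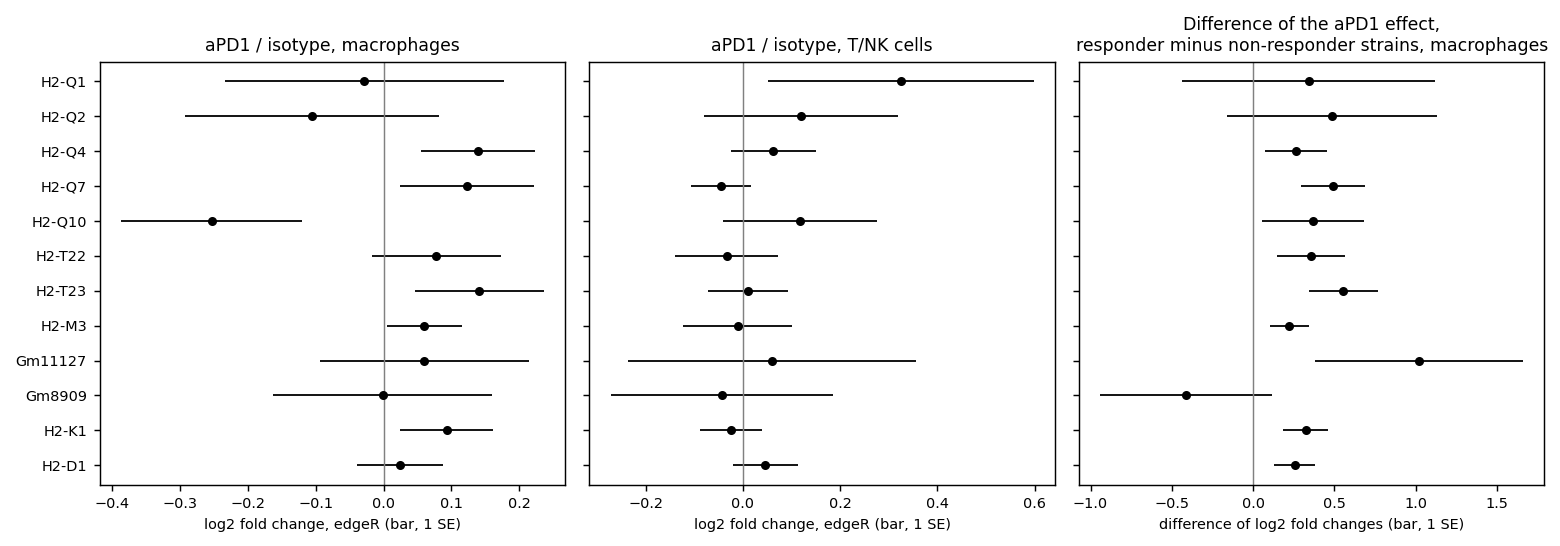
Log2 fold change of aPD1 over isotype with 1 SE from edgeR for the members, H2-K1 and H2-D1 in macrophages and in T/NK cells, and the difference of that log2 fold change between responder and non-responder strains in macrophages. No member passes an adjusted p of 0.05; the interaction is 0.56 for H2-T23 and 0.49 for H2-Q7.

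In T/NK cells (23 aPD1 against 24 isotype tumors) 0 members passed by edgeR or DESeq2 and 0 had an unadjusted p under 0.05. The largest value among members was 0.32 ± 0.27 (log2) for H2-Q1, H2-T23 was at 0.01 ± 0.08 and H2-Q7 at -0.04 ± 0.06, and the member median was 0.04 beside 0.0019 over all 9742 genes. Over all genes edgeR called 1 (0.0103%), the hemoglobin gene Hba-a1, which was lower under aPD1 (log2 -5.52, edgeR adjusted p = 0.028), with 436 at an unadjusted p under 0.05 (4.48%). Of the 1302 Hba-a1 UMIs in T/NK clusters, 1275 were in cluster 12.

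Whether the aPD1 effect differed between responder and non-responder strains was tested as an interaction in macrophages (19 aPD1 and 19 isotype tumors). Response class is a property of the strain, and the fit took tumors, not strains, as replicates. Its p-values and SE, and the counts of pairs below, thus do not measure how the aPD1 effect varies between strains of a class. Again 0 members passed by edgeR or DESeq2, while edgeR called 1 of 12643 genes (0.00791%), which is no member, and 1371 (10.8%) had an unadjusted p under 0.05. Of the 10 members, 2 were among the latter. H2-T23 had a difference of 0.56 ± 0.21 (log2; edgeR adjusted p = 0.384): it was higher under aPD1 in 9 of 10 responder pairs of the same pool and strain (mean difference 0.39) and in 4 of 9 non-responder pairs (-0.10). H2-Q7 had 0.49 ± 0.20 (edgeR adjusted p = 0.391), and was higher in 8 of 10 responder pairs (0.35) and 2 of 9 non-responder pairs (-0.10). The differences of H2-Q1 (0.34 ± 0.78), H2-Q2 (0.48 ± 0.64), Gm11127 (1.02 ± 0.64) and Gm8909 (-0.41 ± 0.53) rest on responder tumors with few UMIs of these genes or none, and are given as values only. Over the other 6 members, which were detected in both classes of strain, the median was 0.36, beside 0.0018 over all genes. These 6 members are not independent of one another, and nothing is read from that median. They include H2-Q10 (0.37 ± 0.31), which was low in the responder tumors too, at no more than 3.05 CPM.

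The other genes of the pathway were taken from 3 lists: class I heavy chain and class I-like genes, the light chain with peptide loading genes, and receptors of class I or class I-like molecules (Klrd1, Klrc1, Klrc2, Klrk1, Klra1, Pirb and Cd8a, of which the first 3 form the receptors of Qa-1). In macrophages 0 of 9, 0 of 12 and 0 of 5 tested genes passed for treatment, and in T/NK cells 0 of 6, 0 of 12 and 0 of 7, all by edgeR. At an unadjusted p under 0.05 the counts were 1, 0 and 0 in macrophages, where 3.27% of all genes tested had one, and 1, 1 and 1 in T/NK cells (4.48%). Among receptors in T/NK cells, Klrc2, which encodes the activating NKG2C chain, was at -0.28 ± 0.13 (log2; edgeR adjusted p = 1.00), and Klrc1 (NKG2A) was at -0.17 ± 0.13. In the interaction 0 of 9, 0 of 12 and 0 of 3 passed, with 4, 8 and 1 at an unadjusted p under 0.05 beside 10.8% of all genes tested; genes of a list are not independent of one another, and nothing more is read from these counts. B2m, the shared light chain, had 0.36 ± 0.11 (log2; edgeR adjusted p = 0.333), H2-K1 0.32 ± 0.14 (0.408) and Nlrc5, the class I transactivator, 0.53 ± 0.21 (0.391). Among the 8 genes of the second list at an unadjusted p under 0.05, Calr (-0.29 ± 0.13) and Pdia3 (-0.26 ± 0.13) had the other sign (edgeR adjusted p = 0.425 and 0.452). They encode chaperones of peptide loading. Of all 12 genes of that list 8 were above 0, and Canx (-0.13 ± 0.11) and Erap1 (-0.01 ± 0.12) were below 0 too. The medians of the interaction were 0.32 and 0.36 over the first and second lists. The 3 receptor genes tested had 1.09 ± 0.39 (Klrk1, edgeR adjusted p = 0.384), 1.01 ± 0.50 (Klrd1, 0.465) and 0.41 ± 0.21 (Pirb, 0.480), of which Klrk1 and Klrd1 are known from NK and T cells. H2-D1 was at 0.25 ± 0.12 (edgeR adjusted p = 0.454).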

How the data were processed

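The counts analysed here are whole UMIs per gene and cell, as the authors deposited them: reads were aligned with Cell Ranger to GRCm38 (mm10) with GENCODE vM23 genes, and cells above the mitochondrial or ribosomal limits of the study were removed (Seurat 5.0.1 per the submitters' processing notes). One B6-derived reference was used for all hosts, and its part in the counts of other haplotypes was not tested. Deposited cluster numbers were named from marker genes; no doublet caller was run. UMIs were summed per tumor and cell class (at least 25 cells). Treatment was tested with edgeR 4.0.16 in R 4.3.3 (quasi-likelihood, TMM, filterByExpr, Benjamini-Hochberg adjustment, strain as covariate), with DESeq2 1.42.0 as an alternative. On simulated treatment data with 200 changed genes, edgeR recovered 41 of 48 genes raised and 35 of 41 lowered 1.5-fold in macrophages (12670 genes), and 34 of 46 and 25 of 40 in T/NK cells (9203 genes).

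The members and lists were chosen with earlier results of these data known; the named genes are the 10 members, the 3 lists and, per member, the most correlated genes outside the members. Lists of 19, 12 and 7 genes had 13, 12 and 7 in the table. Isotype and aPD1 tumors of a strain in the same pool were paired through their shared library, as the labels give it: deviations of such pairs correlated with a median r of 0.22 in macrophages (24 pairs, -0.182 to 0.517, 19 over 0.1; -0.105 across pools) and 0.091 in T/NK cells (22 pairs, -0.006 to 0.345, 10 over 0.1; -0.05 across pools). Deviations from the mean of a strain and treatment cancel over its pools, so the values across pools largely follow from the others and are no separate contrast. A CC080 isotype tumor of pool 3 and a CC080 aPD1 tumor of pool 4 carry the same animal identifier; both were kept. Sequences and coordinates came from GRCm38 with GENCODE vM21 annotation, and sequences were aligned with Biopython 1.88. The p-values measure the spread between tumors and, for the interaction, not that between strains of a response class. The name of a gene and the sequence of another are not reported here.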

Additional observations from a re-analysis of the deposited data

Results flagged for a closer look

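Of 150 groups of 4 to 8 tumors (a member in a strain and cell class), 14 held a tumor far from the others of its group. For continuous values chance gives such a tumor in about 1 in 20 groups. That rate does not hold for groups at or near 0, where a tumor with 1 UMI among tumors with none is always flagged. The count of 14 is therefore not compared with it. In macrophages, H2-Q1 was 0 CPM in the aPD1-treated CC007 tumor of pool 6 (30 macrophages, 0 UMIs) against 13.5 to 19.1 CPM in the other CC007 tumors, a level that 0 counts at that depth do not distinguish from theirs. The aPD1-treated CC001 tumor of pool 2 was high for H2-Q4 (161 CPM against 85.1 to 111) and for H2-M3 (81.4 CPM against 60.1 to 68.1). H2-T22 was 129 CPM in the isotype B6 tumor of pool 7 against 75.9 to 89.9 CPM in the others. H2-M3 was 28.2 CPM in the isotype CC080 tumor of pool 11 against 40.0 to 45.2 CPM.

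In T/NK cells, the aPD1-treated CC080 tumor of pool 11 (106 T/NK cells) was low for H2-Q7 (304 CPM against 456 to 525), H2-Q10 (9.76 CPM against 15.5 to 17.7) and H2-M3 (17.6 CPM against 36.3 to 41.9). H2-Q10 was 0 CPM in the isotype B6 tumor of pool 7 (35 T/NK cells) against 4.34 to 8.45 CPM. With so few cells, 0 counts may not differ from those levels. The remaining tumors stood out through 1 or 2 UMIs in strains otherwise at 0: H2-Q1 at 0.97 CPM in the isotype B6 tumor of pool 6 and 0.887 CPM in the aPD1-treated CC075 tumor of pool 9, Gm11127 at 1.36 CPM in the aPD1-treated CC001 tumor of pool 4, and Gm8909 at 0.682 CPM in the isotype B6 tumor of pool 8 and 0.583 CPM in the aPD1-treated CC002 tumor of pool 5.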

How the results depend on the processing

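Of 460 member log2 fold changes under the alternatives, 0 passed the threshold (smallest adjusted p 0.258, edgeR or DESeq2), and 44 had the other sign, none of them past the threshold in either setting. The count of genes called for treatment in macrophages stayed 0. In T/NK cells the 1 call became 0 with DESeq2, with tumors of at least 100 cells, and in pools 1 to 6 or 7 to 12 alone, and 70 with no filter on low counts; leaving out a strain gave 0 to 1 (0 without B6, CC001, CC007, CC036, CC079 or CC080). The 1 call of the interaction became 6 with DESeq2, 2 with no filter, 2 without the CC080 tumors of 1 animal identifier and 0 in either set of pools, and 0 to 1 without a strain (0 without CC001, CC036, CC075, CC079 or CC080). With pool and strain pairs as a replicate block the counts were 0, 1 and 1 (the genes differed from those of the unblocked fit), no member's call changed, and the interaction was 0.54 for H2-T23 (adjusted p = 0.275, edgeR) and 0.50 for H2-Q7 (0.282). The causes were not tested.

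Pairs of a member and a strain apart from the others numbered 1 in macrophages, and 2 with isotype tumors alone, 2 with aPD1 tumors alone, 2 with at least 100 cells, 3 in the largest macrophage cluster alone, 6 in pools 1 to 6 and 7 in pools 7 to 12 (5 strains each, fewer to differ from); 1 remained in the macrophage clusters without the largest (H2-Q2 in CC007 in place of H2-Q10), and each strain set against B6 alone, an alternative chosen after seeing the data, gave 25. Leaving out a tumor gave 1 to 2 (2 without the CC007 aPD1 tumor of pool 6, the CC007 isotype tumor of pool 7 or the CC079 isotype tumor of pool 2). In T/NK cells the 2 became 5 with isotype tumors alone, 3 with aPD1 tumors alone, 3 with TMM-scaled totals, 4 with at least 100 cells, 8 in pools 1 to 6 and 6 in pools 7 to 12, and leaving out a tumor gave 2 to 3 (3 without the CC007 isotype tumor of pool 7, the CC036 aPD1 tumor of pool 10 or the CC079 aPD1 tumor of pool 1). Leaving out cluster 12, chosen after seeing the data, gave 2.

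Log2 fold changes of the other sign in macrophages were 0.0035 (block), 0.1954 (pools 1 to 6) and 0.0209 (without the CC080 tumors of 1 identifier) for H2-Q1, -0.0032 (pools 7 to 12) for H2-T22, -0.0494 (pools 1 to 6) for Gm11127, and 0.0089 (no filter), 0.0126 (at least 100 cells), 0.0052 (pools 1 to 6) and 0.045 (without the CC080 tumors) for Gm8909. In T/NK cells they were -0.0093 (H2-Q2), -0.0953 (H2-Q4), -0.0185 (H2-T23) and 0.0469 (H2-M3) in pools 1 to 6, -0.0515 (H2-Q10), 0.1196 (H2-T22), -0.1434 (Gm11127) and 0.381 (Gm8909) in pools 7 to 12, -0.0102 (H2-T23) and -0.0399 (Gm11127) with the block, -0.0569 with DESeq2 and -0.0874 without the CC080 tumors for Gm11127, and 0.38 with at least 100 cells for Gm8909. The interaction of H2-Q1 was -0.1469 with the block and -0.4975 in pools 7 to 12. Leaving out a strain gave H2-Q1 -0.2301 to 0.1185, H2-Q2 -0.2845 to 0.0151, H2-T22 -0.0116 to 0.1345 and Gm8909 -0.10 to 0.0524 in macrophages, H2-T22 -0.0882 to 0.0106, H2-T23 -0.0409 to 0.0331, H2-M3 -0.0776 to 0.031, Gm11127 -0.1527 to 0.1803 and Gm8909 -0.2547 to 0.3439 in T/NK cells, and H2-Q1 -0.544 to 0.8342 in the interaction. Depth limits H2-Q1, H2-Q2, Gm11127 and Gm8909 in the strains near 0, where a tumor gave few UMIs of them or none.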
